A study of Homo sapiens with 8 samples.

Results

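Long non-coding RNAs (lncRNAs) that lie beside or across a protein-coding gene, together with that gene, were examined in EndoC-βH5 cells exposed to pro-inflammatory cytokines. The members are the 8 rows of the deposited expression table named BST2, BISPR, ETV7, ETV7-AS1, CYLD, CYLD-AS1, USP30 and USP30-AS1, which is 8 of 16525 listed genes. They form 4 pairs, each with 1 coding gene and 1 lncRNA. The choice rested on the change of these genes in the same libraries, so their changes are described here without a test. The cells, EndoC-βH5, are a line of human pancreatic beta cells. 4 cultures were left untreated (CTRL) and 4 were exposed to interleukin-1β (IL-1β), interferon-γ (IFN-γ) and tumour necrosis factor-α (TNFα) together for 48 h (CYT), and both groups were grown in the same maintenance medium. Sequencing libraries of mRNA were made with a strand-specific kit. Cells of 1 line were used throughout, and the labels do not say that the replicates came from separate cell stocks, so p-values measure only the spread between these libraries, which may be technical.

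IFN-γ acts through the JAK1 and JAK2 kinases, and promoters that answer to it often hold gamma-activated sites (GAS) or interferon-stimulated response elements (ISRE), the latter bound by the transcription factor IRF1. IL-1β and TNFα act mainly through NF-κB, and several of their signalling steps are built on ubiquitin chains that enzymes such as CYLD remove. An antisense or divergent lncRNA can share a promoter region with its coding neighbour or start independently of it, and its level can follow the neighbour or not. BST2 (tetherin) is a membrane protein that holds budding enveloped viruses at the cell surface, and BISPR is the lncRNA transcribed away from it. ETV7 is an interferon-inducible repressor of the ETS transcription factor family. CYLD is a deubiquitinase that restrains NF-κB signalling. USP30 is a deubiquitinase of the mitochondrial outer membrane that opposes the removal of damaged mitochondria by mitophagy.

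Levels are given as CPM, reads of a gene scaled to a fixed library total. The reads behind every value could be recovered, and each library held between 36577438 and 40117636 reads on the listed genes. A single read was worth 0.0196 to 0.0214 CPM. Where a gene had no read, its level could still have been up to that of 3 reads, or 0.0587 to 0.0641 CPM. Such limits and the intervals of read ratios below cover counting error only. Untreated and cytokine columns whose names begin alike were taken as pairs and are called A, B, C and D. Column names in A and B end alike, as do those in C and D. The share of listed reads on mitochondrially encoded genes was 18.3% to 18.7% in untreated libraries A and B and 7.39% to 11.5% in C and D, against 13.6% to 13.8% and 5.24% to 8.34% after cytokines. All 12 beta-cell markers searched were among the listed genes, with summed levels of 24824 to 37539 CPM in untreated and 29547 to 53358 CPM in cytokine-exposed libraries. Of 16 markers of other cells 7 were listed, summing to 566 to 2266 CPM and 654 to 2076 CPM.

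Promoter sequences of 4 members are shown first, because an ISRE or GAS motif was found for BST2, BISPR and CYLD-AS1, and the first window of CYLD, partner of CYLD-AS1, is printed beside them without a match. They are RefSeq windows of GRCh38.p14 running from 250 bases before to 50 bases after the annotated start, 5′ to 3′ in the direction of the gene. Capitals mark matches to the ISRE core (GAAA, any 2 bases, GAAA) or to the GAS motif TTCNNNGAA, either of which was searched on both strands.
BST2, chr19:17405581-17405880 (minus strand): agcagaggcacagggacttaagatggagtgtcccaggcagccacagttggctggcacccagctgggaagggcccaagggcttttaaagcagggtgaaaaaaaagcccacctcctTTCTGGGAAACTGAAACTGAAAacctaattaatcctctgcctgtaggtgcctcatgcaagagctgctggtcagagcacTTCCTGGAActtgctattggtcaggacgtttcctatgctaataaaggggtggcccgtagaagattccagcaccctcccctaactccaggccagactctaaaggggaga
BISPR, chr19:17405436-17405735 (plus strand): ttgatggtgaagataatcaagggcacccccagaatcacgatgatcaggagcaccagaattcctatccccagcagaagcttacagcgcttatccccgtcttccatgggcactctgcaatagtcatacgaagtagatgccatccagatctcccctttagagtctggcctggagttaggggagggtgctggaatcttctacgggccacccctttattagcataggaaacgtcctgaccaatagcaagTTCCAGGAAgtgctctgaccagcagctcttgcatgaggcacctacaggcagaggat
CYLD-AS1, chr16:50742698-50742997 (minus strand): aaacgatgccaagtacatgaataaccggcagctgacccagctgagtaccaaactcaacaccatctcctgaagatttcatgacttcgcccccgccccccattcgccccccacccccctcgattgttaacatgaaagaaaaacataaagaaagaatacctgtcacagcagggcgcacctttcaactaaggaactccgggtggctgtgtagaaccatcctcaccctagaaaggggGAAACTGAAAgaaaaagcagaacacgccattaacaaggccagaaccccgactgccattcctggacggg
CYLD, chr16:50741836-50742135 (plus strand): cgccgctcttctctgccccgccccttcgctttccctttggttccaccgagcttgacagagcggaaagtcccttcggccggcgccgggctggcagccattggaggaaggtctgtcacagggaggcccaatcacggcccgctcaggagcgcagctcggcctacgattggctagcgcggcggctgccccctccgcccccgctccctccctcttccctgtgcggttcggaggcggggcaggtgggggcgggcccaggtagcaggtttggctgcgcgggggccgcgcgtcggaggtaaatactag

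Windows were found for 6 of the 8 members, 9 windows in all, for BST2, BISPR, ETV7-AS1, CYLD, CYLD-AS1 and USP30. The BST2 window held 2 overlapping ISRE cores, at chr19:17405751-17405760 and chr19:17405745-17405754, which end 120 and 114 bases before the RefSeq start, and the first overlaps a GAS motif at chr19:17405758-17405766. A second GAS motif, at chr19:17405680-17405688, lies 49 bases before the start of BST2 and covers the first bases of BISPR, so the single match counts for both genes. The BST2 and BISPR windows share 155 bases, and their RefSeq starts are 56 bases apart. The CYLD-AS1 window held 1 ISRE core, at chr16:50742756-50742765, whose end lies 8 bases before the RefSeq start. Among 34943 promoter windows of the same length 3.57% held the ISRE core and 7.66% the GAS motif. The shorter motif AANNGAAA, the core bound by interferon regulatory factors, lies within the ISRE core and was present in 22.9% of all windows. It matched in the windows of BST2, ETV7-AS1 and CYLD-AS1, in the first CYLD window and in the second USP30 window. The other windows of CYLD and USP30 held no match. That second USP30 window, chr12:109052326-109052625, overlaps the span of USP30-AS1. A match is a string of letters and not a measured binding site.

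The 4 pairs differed in how the lncRNA lies to its neighbour, in coordinates of GENCODE 29 on GRCh38. BST2 (chr19:17402939-17405648, minus strand) and BISPR (chr19:17405686-17419324, plus strand) are divergent, with starts 38 bases apart and no shared base. ETV7 (chr6:36354091-36387800, minus strand) and ETV7-AS1 (chr6:36386831-36393462, plus strand) overlap head to head over 970 bases, none of them exonic in both genes. CYLD (chr16:50742050-50801935, plus strand) and CYLD-AS1 (chr16:50727417-50742815, minus strand) overlap head to head over 766 bases, of which 56 are exonic in both, or 1.64% of the exon bases of CYLD-AS1. In these coordinates CYLD-AS1 starts at base 50742815, so the ISRE core above lies inside its first exon. An annotated CYLD transcript starts at base 50742760, within that core, so the match cannot be assigned to the lncRNA alone. USP30-AS1 (chr12:109052350-109053952, minus strand) lies wholly inside USP30 (chr12:109023089-109088026, plus strand). Its start is 30863 bases downstream of the start of the USP30 gene and 1056 bases downstream of the nearest annotated start of a USP30 transcript, and 233 of its 656 exon bases (35.5%) are also exonic in USP30. Reads were counted with the default settings of the counting program, and the orientation of the strand-specific libraries is not given in the sources used here. In 865 pairs of a lncRNA and a coding gene on opposite strands that share exon bases, the coding gene had the higher level per kilobase in 686 (79.3%) of the pairs in untreated cells. BISPR also shares 607 exon bases (19.9% of its own) with MVB12A on the same strand, where a read could belong to either gene, and CYLD-AS1 shares 202 exon bases (5.93%) with NOD2 on the opposite strand.

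**Figure D1:**
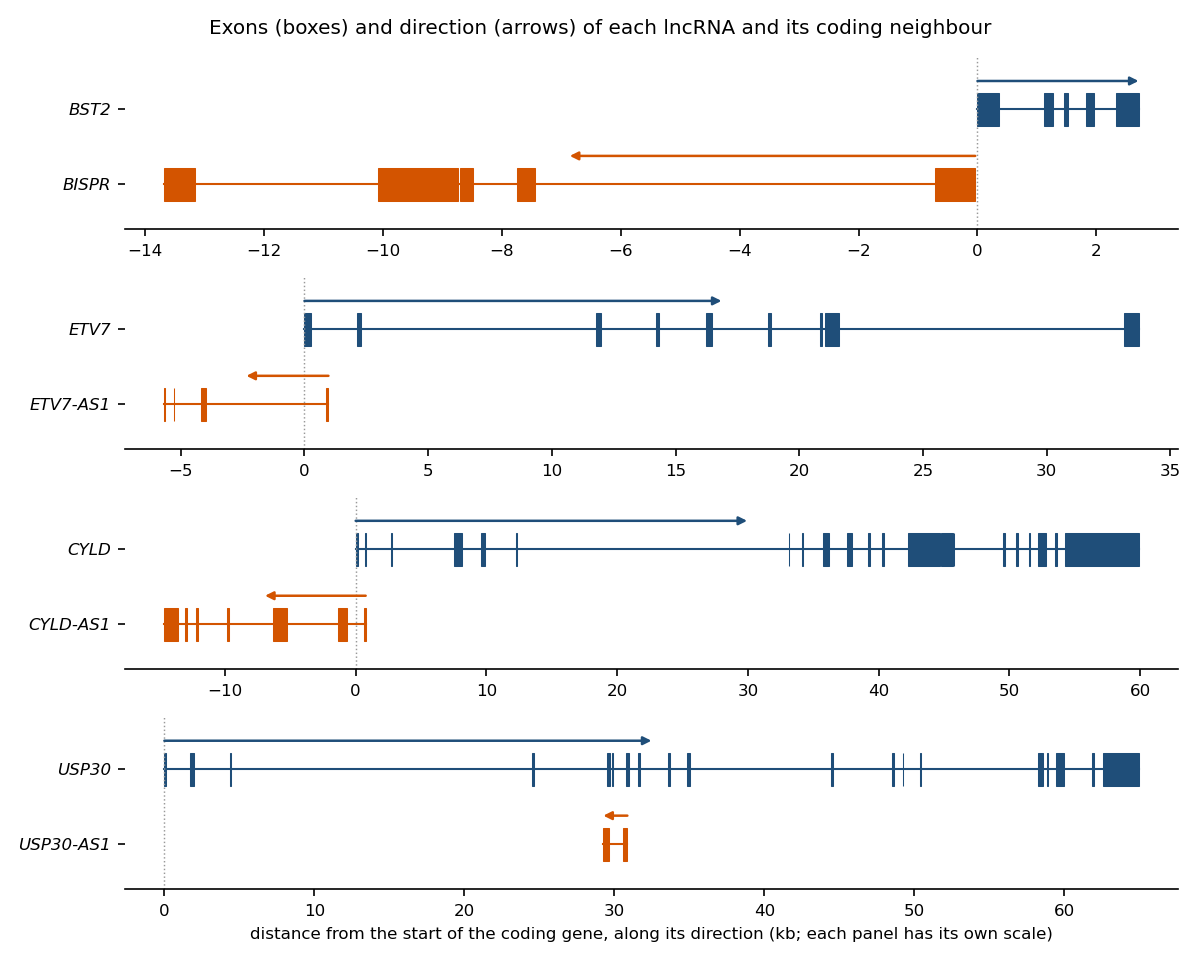
Exons (boxes) and direction of transcription (arrows) of each coding gene and its lncRNA, by distance in kb from the start of the coding gene along its own direction, with a separate scale for each panel. BISPR runs away from BST2 with starts 38 bases apart, ETV7-AS1 and CYLD-AS1 overlap the first part of their neighbours, and USP30-AS1 lies inside USP30.

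BST2 was among the most changed genes, and BISPR, almost without reads in untreated cells, was high in every cytokine-exposed library. BST2 was at 1.05, 1.48, 0.0398 and 0.0587 CPM in untreated libraries A to D and at 243, 241, 560 and 415 CPM in cytokine-exposed libraries A to D. The groups were far apart, with 124 reads in all untreated and 71203 in all cytokine-exposed libraries. The mean went from 0.657 ± 0.724 CPM to 365 ± 154 CPM (SD, n = 4), a log2 change of 9.58 (SE 0.73) on log2(CPM + 0.1), the scale of all log2 changes here. BISPR had 1, 1, 3 and 0 reads in untreated libraries A to D and was at 21.8, 23.8, 15.4 and 21.2 CPM after cytokines. Its 5 untreated reads stood against 3964 cytokine reads, a ratio of read rates of 802 (95% interval 343 to 2470), and its log2 change was 7.37 (SE 0.24). None of the 8 members overlapped between the groups, whereas 32.8% of all listed genes did not overlap, a share given for background only because the members were chosen on this contrast. In bulk RNA more cells with a transcript and more transcript per cell cannot be told apart.

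The untreated level of BST2 fell into separate ranges by column name, and this was tested, since the comparison between the name endings was not used to choose the members. It draws on the same libraries as the choice, however, and each ending holds 2 libraries per group. A and B were also far closer to each other than the other libraries of a group, so the SE and p-values below may not measure independent replication. Untreated libraries A and B had 49 and 70 BST2 reads and C and D had 2 and 3. The untreated level of C and D minus that of A and B was -3.18 on the log2 scale (SE 0.20), with a limma adjusted p of 3.93e-05, and edgeR on the recovered reads gave -4.78 and an adjusted p of 0.00128. The change with cytokines was 7.49 in A and B and 11.66 in C and D, a difference of 4.17 (SE 0.28, limma adjusted p = 8.77e-05; edgeR 5.71, adjusted p = 0.0027). In the 13 fits tried the adjusted p of this difference was between 6.71e-06 and 0.0161. Only 5 genes (0.0303%) passed for such a difference, and 488 had an unadjusted p under 0.05, whereas 21.8% of genes passed for the untreated level. The others among the 5, named after their values were seen, were the interferon-induced GBP1 and CXCL10, also near 0 in untreated C and D, and the NF-κB pathway genes NFKB2 and NFKBIA. For the other 7 members the adjusted p of the difference in change was 0.999 in limma, which does not show that their changes were alike. CYLD differed in its untreated level by 0.39 (C and D minus A and B, limma adjusted p = 0.0405), which edgeR with TMM (trimmed mean of M-values) scaling did not call (0.21, adjusted p = 0.207) and which was lost without any of 6 libraries (untreated A, B, C or D, cytokine A or B), at 0.0591 to 0.237. The mitochondrial share of reads also differed between the name endings, and its part in these differences was not tested.

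ETV7 and ETV7-AS1 were both higher in all 4 pairs, from a low level of the coding gene and from no read of the lncRNA. ETV7 was at 0.620, 0.868, 0.518 and 0.704 CPM in untreated libraries A to D and at 116, 110, 152 and 134 CPM after cytokines. The mean went from 0.677 ± 0.148 to 128 ± 19.2 CPM, a log2 change of 7.37 (SE 0.18) with pair values between 6.83 and 7.95. ETV7-AS1 was at 0 in each untreated library and at 1.60, 1.71, 1.79 and 2.31 CPM after cytokines, which is 75 to 115 reads. Against the limit of 3 reads per library that a count of 0 allows, ETV7-AS1 was at least 30.1-fold higher. It was the member with the fewest reads in cytokine-exposed cells, at 1.18% to 1.72% of the ETV7 level in CPM.

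On the log2 scale CYLD changed little beside CYLD-AS1. CYLD was at 32.5, 34.5, 44.7 and 43.3 CPM in untreated libraries A to D and at 67.7, 66.7, 72.5 and 85.7 CPM after cytokines. The cytokine mean was 1.89 times the untreated mean (73.1 ± 8.72 against 38.8 ± 6.14 CPM), and the log2 change of 0.92 (SE 0.14) varied between 0.70 and 1.06 over the pairs. CYLD-AS1 was at 0, 0.169, 0.0199 and 0.156 CPM in untreated libraries and at 9.07, 6.41, 3.46 and 5.28 CPM after cytokines. These are 17 reads against 1161, a ratio of read rates of 69.1 (95% interval 42.9 to 119), and a log2 change of 5.10 (SE 0.41). In cytokine-exposed libraries CYLD-AS1 varied from 4.78% of the CYLD level in library C to 13.4% in library A.

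USP30-AS1 was higher in all 4 pairs whereas USP30, the gene around it, was lower in all 4. USP30 was at 31.2, 33.5, 35.1 and 28.4 CPM in untreated libraries and at 25.7, 27.1, 21.9 and 23.8 CPM after cytokines. Its log2 change of -0.38 (SE 0.12) lay below the median of -0.17 over all listed genes, and with TMM scaling it was -0.23 beside a median of -0.02. USP30-AS1 was at 0, 0.0635, 0.0995 and 0.0587 CPM in untreated libraries and at 11.1, 9.85, 10.5 and 11.7 CPM after cytokines. The cytokine-exposed libraries lay close together, at 10.8 ± 0.815 CPM, and 11 untreated reads stood against 2089, a ratio of read rates of 192 (95% interval 107.1 to 385). The log2 change was 6.17 (SE 0.26). In cytokine-exposed cells USP30-AS1 reached 36.3% to 49.2% of the USP30 level in reads, and per kilobase of exon it was 3.46 ± 0.456 times as high as USP30.

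**Figure D2:**
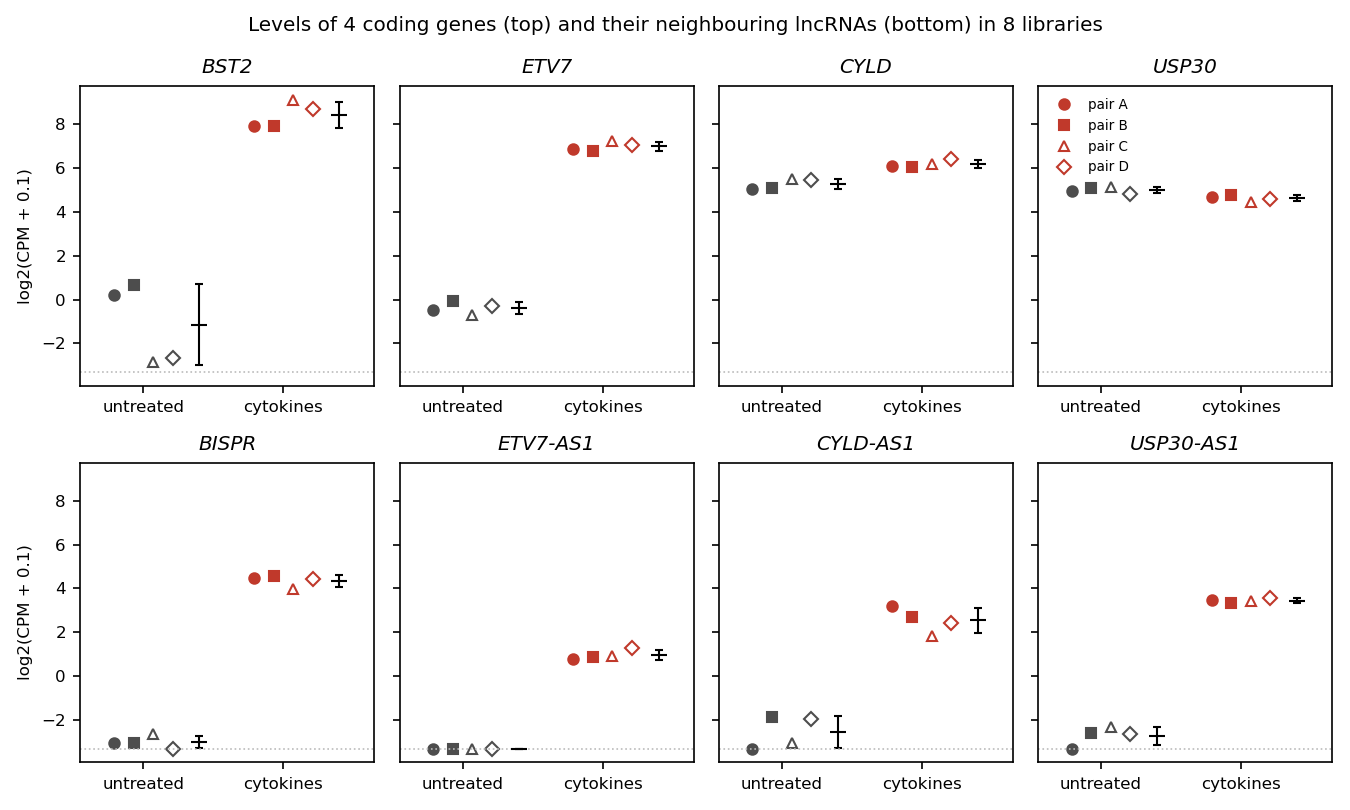
Level of each coding gene (top row) and its lncRNA (bottom row) as log2(CPM + 0.1) in the 4 untreated and 4 cytokine-exposed libraries, with filled symbols for pairs A and B, open symbols for C and D, the mean ± SD of each group at its right, and a dotted line at 0 CPM. The groups do not overlap in any panel, ETV7-AS1 is at 0 in all 4 untreated libraries, and untreated BST2 splits by pair into A and B (1.05 and 1.48 CPM) and C and D (0.0398 and 0.0587 CPM).

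Set beside its partner in each pair, the log2 change of the lncRNA was larger in 2 loci and was not ordered firmly in the others. USP30-AS1 exceeded USP30 by 7.09, 6.23, 6.41 and 6.47 log2 units in pairs A to D (mean 6.55 ± 0.37). CYLD-AS1 exceeded CYLD by 5.46, 3.65, 4.20 and 3.41 (mean 4.18 ± 0.92). These 2 differences are larger than their spread over pairs. They kept their direction under every alternative run, down to 3.85 and 1.74 with a pseudocount of 1. The members were chosen on these same changes, so the order is described and not tested. CYLD rose from 38.8 to 73.1 CPM and CYLD-AS1 from 0.0864 to 6.06 CPM, so in CPM the coding gene rose more. USP30 went from 32.1 to 24.6 CPM and USP30-AS1 from 0.0554 to 10.8 CPM.

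BISPR minus BST2 was -0.23, 0.37, -5.37 and -3.62 in pairs A to D, a mean of -2.21 ± 2.74. On this scale the 2 changes were close in A and B, and in C and D that of BST2 was far larger, where its untreated level was near 0. BISPR had 0 to 3 reads in each untreated library, so its change in every pair depends on the added 0.1 CPM. In reads BISPR went from 1 to 1026 in A and from 1 to 1115 in B. BST2 went from 49 to 11408 in A and from 70 to 11306 in B. The mean difference of -2.21 is smaller than the spread between pairs, and edgeR put BISPR above BST2 by 0.44. ETV7-AS1 minus ETV7 was -3.25, -2.65, -3.71 and -2.79 (mean -3.10 ± 0.48). With no untreated read of ETV7-AS1 this difference depends on the pseudocount, and edgeR gave 1.87 in the opposite direction, so no order of the changes can be given for this pair.

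**Figure D3:**
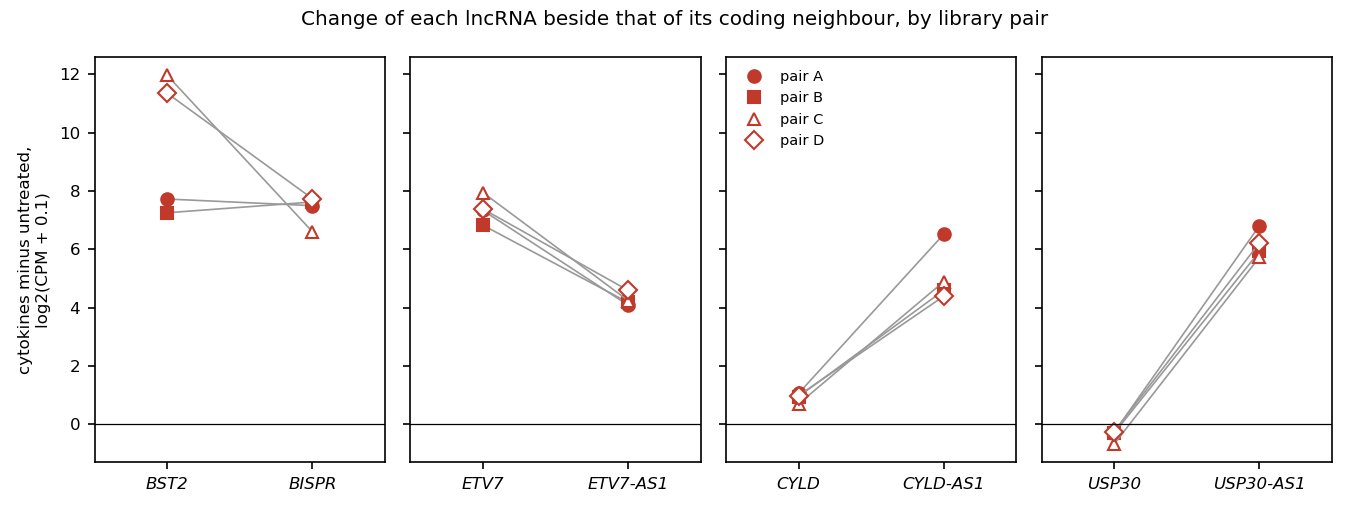
Change with cytokines, as log2(CPM + 0.1) in the cytokine-exposed minus the untreated library of each pair, for each coding gene (left) and its lncRNA (right), joined by a line per pair. USP30-AS1 and CYLD-AS1 lie above their partners in all 4 pairs, and the BST2 values of pairs C and D (11.97 and 11.35) stand above those of A and B (7.73 and 7.25).

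By the size of the log2 change BISPR ranked 1st, USP30-AS1 4th, CYLD-AS1 6th and ETV7-AS1 9th of 2419 lncRNA genes. BST2 ranked 3rd, ETV7 20th, CYLD 884th and USP30 9469th of 13401 coding genes. The members were chosen on this same contrast, so the places only describe them. Genes were listed only at 0.5 CPM in at least 4 samples, and the 4 lncRNAs reached at most 0.169 CPM in any untreated library. They could thus not have been listed through untreated libraries alone. The places above hold for a pseudocount of 0.1. With a pseudocount of 1 BISPR came 2nd, USP30-AS1 7th, CYLD-AS1 14th and ETV7-AS1 24th, and in edgeR they came 1st, 5th, 10th and 2nd. ETV7-AS1, which had no untreated read, moved most, and its log2 change was 1.51 in the first of these and 9.57 in the second. Over all listed genes 9.52% were called higher and 17.5% lower, where called means an absolute log2 change above 0.5 and an adjusted p below 0.05 in limma, and 5.37% of lncRNA genes and 10.4% of coding genes were called higher. With TMM scaling the shares were 13.0% higher and 11.7% lower over all genes.

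Levels between genes were compared per kilobase of exon. In cytokine-exposed cells the order was BST2 (326 ± 137 CPM per kilobase), ETV7 (54.0 ± 8.09), USP30-AS1 (16.5 ± 1.24), BISPR (6.76 ± 1.19), CYLD (5.65 ± 0.674), ETV7-AS1 (5.13 ± 0.875), USP30 (4.80 ± 0.442) and CYLD-AS1 (1.78 ± 0.689). The 4 genes from BISPR to USP30 differed from their neighbours in this order by no more than their spread. In untreated cells USP30 (6.25 ± 0.568) and CYLD (2.99 ± 0.474) led, BST2 (0.587 ± 0.647) and ETV7 (0.285 ± 0.0624) did not differ beyond their spread, and the lncRNAs were at 0.0845 or below.

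Over the 8 libraries no member had its partner as the gene with the most similar profile. Likeness was the root mean square difference of log2(CPM + 0.1) after each gene's own mean was taken off, and the 2 nearest genes with a symbol are given. For BST2 they were CXCL10 (0.461) and GBP1 (0.504), the same genes whose change differed between the name endings, and BISPR came 23rd. For BISPR they were ETV7 (0.422) and SECTM1 (0.439), and BST2 came 109th. ETV7 lay nearest to PLAAT4 (0.332) and SECTM1 (0.370), and ETV7-AS1 lay nearest to SP100 (0.159) and MX1 (0.162). CYLD-AS1 was nearest to C2, a complement component (0.276), and LINC02605 (0.416), and USP30-AS1 to MT2A, a metallothionein (0.113), and APOL1 (0.314). CYLD was nearest to ENTPD4 (0.0771) and UBR2 (0.0819) with CYLD-AS1 at place 14975, and USP30 to ACAA2 (0.0520) and RIMS3 (0.0540) with USP30-AS1 at place 15010. The measure takes in the size of the change with cytokines, so genes of unequal change are far apart by construction. For genes with few or no untreated reads, the lncRNAs above all, it also depends on the added 0.1 CPM, and no other value was tried. ETV7-AS1 had no untreated read, so its nearness to SP100 and MX1 holds on this scale only.

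Genes around the 4 loci were then examined, which were not part of the choice. A gene was listed only if it reached 0.5 CPM in at least 4 samples. CCDC194, PLVAP and NOD2 had untreated means of 0.0950, 0.0449 and 0.0250 CPM, so untreated libraries alone could not have listed them. Their rises and adjusted p are thus partly set by that filter. Of the 24 neighbours, the 3 nearest listed genes on each side, 5 rose and 8 fell in limma, where 9.52% of all genes were called higher and 17.5% lower. The median log2 change of the neighbours was -0.27, beside -0.17 over all genes, and all 13 called neighbours had the same direction in the 4 pairs. With TMM scaling 5 rose and 5 fell, and with edgeR 5 rose and 4 fell.

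At BST2, CCDC194 rose from 0.0950 ± 0.137 to 17.3 ± 5.51 CPM, a log2 change of 6.64 (SE 0.42, limma adjusted p = 1e-06). It lies 8781 bases from the end of BST2. PLVAP, which forms the diaphragms of endothelial vesicles, rose by 2.72 (SE 0.38) to 0.871 ± 0.395 CPM, and MVB12A, a subunit of the ESCRT-I sorting complex that shares exon bases with BISPR, rose by 1.09 (SE 0.13). GTPBP3, a mitochondrial tRNA-modifying enzyme, fell by 0.60 on the log2 scale, a call that was lost with TMM scaling (-0.44). SLC27A1 (-0.32) and PGLS-DT (-0.35) did not pass.

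At CYLD, NOD2, a sensor of bacterial cell-wall fragments whose gene overlaps CYLD-AS1 on the opposite strand, rose from 0.0250 ± 0.0188 to 1.09 ± 0.412 CPM, a log2 change of 3.18 (SE 0.36, limma adjusted p = 9.45e-05). TOX3, 1636070 bases from the pair, rose by 0.95 (SE 0.19). The lncRNA gene ENSG00000260573, 181070 bases away on the other side, fell by 2.58 (SE 0.30), from 0.587 ± 0.0713 to 0.0154 ± 0.0194 CPM. Cytokine-exposed libraries alone could not have listed this gene, so its fall is partly set by the filter. Its mean there was below the value of a single read, so the size of the fall depends on the added 0.1 CPM. NKD1, an inhibitor of Wnt signalling, fell by 0.67, a call lost without any of 4 of the 8 libraries (untreated C or D, cytokine A or B; limma adjusted p 0.0519 to 0.0736). SALL1 (0.14) and HNRNPA1L3 (-0.80), 334040 and 751501 bases from the pair, did not pass. HNRNPA1L3 passed without untreated library A (-1.10, limma adjusted p = 0.0268).

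At ETV7 no neighbour rose. BRPF3-AS1 fell by 0.95, a call lost with TMM scaling (-0.81, limma adjusted p = 0.0896) and without any of 5 libraries (untreated A, B or D, cytokine A or C; 0.0636 to 0.0838). BRPF3 (0.22), MAPK13 (-0.31), KCTD20 (-0.12), STK38 (-0.23) and SRSF3 (-0.01) did not pass, and KCTD20 and SRSF3 changed sign with TMM scaling (0.04 and 0.15).

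At USP30, 4 of the 6 neighbours fell and the other two did not pass. SVOP, a synaptic vesicle protein, fell by 0.75 (SE 0.12, limma adjusted p = 0.000857), and ACACB, which makes malonyl-CoA at mitochondria, fell by 0.78 (SE 0.19). The DNA repair genes ALKBH2 and UNG fell by 0.72 and 0.61. ALKBH2 lost its call without any of 4 libraries (untreated C or D, cytokine A or B; limma adjusted p 0.0622 to 0.0778) and in edgeR (0.0524), and UNG without any of 6 (untreated B, C or D, cytokine A, B or D; 0.0615 to 0.104) and with TMM scaling (-0.46). SSH1 (-0.18) and CORO1C (0.20) did not pass.

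**Figure D4:**
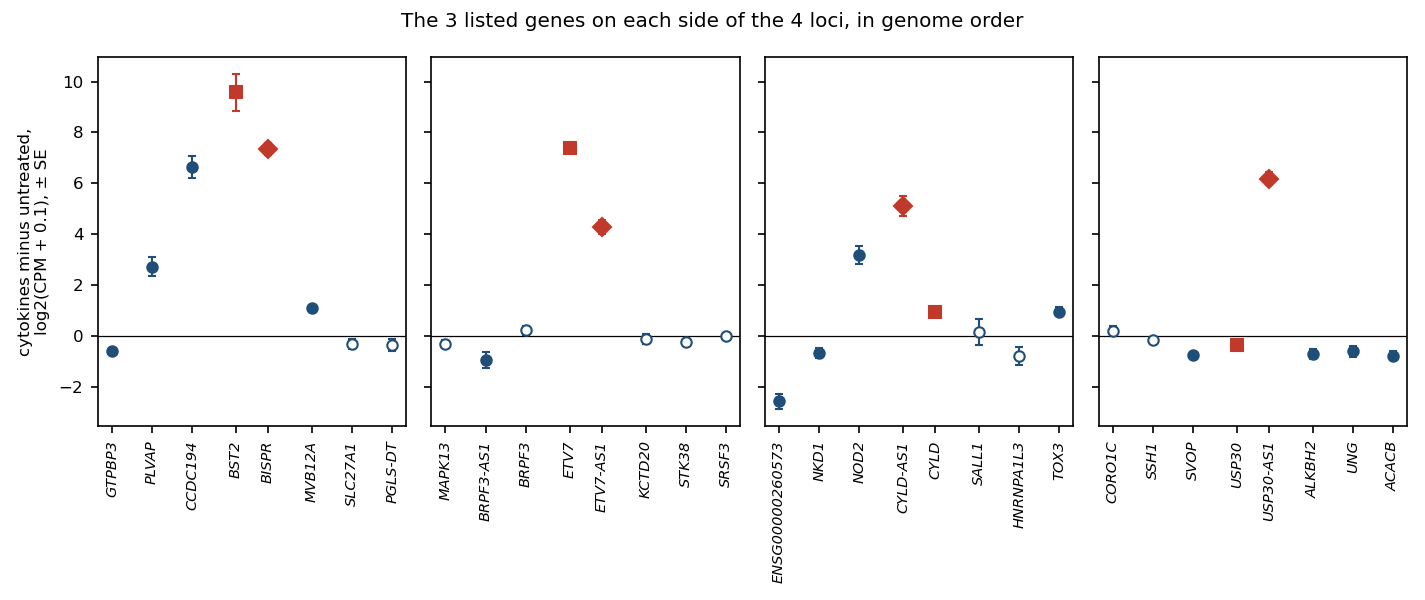
Change with cytokines (log2(CPM + 0.1), cytokine-exposed minus untreated, ± SE, n = 4 per group) of the members (red, squares for coding genes and diamonds for lncRNAs) and of the 3 listed genes on each side (blue, filled where called), in genome order. CCDC194 (6.64) and NOD2 (3.18) are the neighbours with the largest rise, and no neighbour of ETV7 or USP30 was called higher.

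The other genes of the pathways in which the coding members act were taken from lists of general knowledge, with the members left out. Over all genes 9.52% were called higher and 17.5% lower in limma, or 13.0% and 11.7% with TMM scaling. Interferon-γ signalling stood highest. Of its 18 genes 14 rose and none fell, with a median log2 change of 2.88 beside -0.17 over all genes. Each of the 14 had the same direction in all 4 pairs. SOCS3 and CIITA, at untreated means of 0.0204 and 0.313 CPM, could not have been listed through untreated libraries alone. Their part in the count is thus partly set by the filter of 0.5 CPM. IRF1, the transcription factor that binds ISRE motifs, rose from 11.3 ± 1.05 to 755 ± 157 CPM (log2 change 6.03, SE 0.15), and SOCS1, the feedback inhibitor of JAK kinases, from 1.17 ± 0.352 to 61.7 ± 11.5 CPM (5.62, SE 0.21). The genes that did not pass were the receptor subunits IFNGR1 (0.25) and IFNGR2 (-0.06), the kinase JAK1 (0.08) and PIAS1 (0.18).

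Of 14 virus restriction genes listed, the class to which BST2 belongs, 12 rose and 1 fell, with a median of 2.19. The shares over all genes were 9.52% higher and 17.5% lower. RSAD2 (viperin), an antiviral enzyme, rose by 5.80 (SE 0.29) to 154 ± 41.1 CPM. IFITM1, which blocks fusion of virus and cell membranes and has near-identical relatives that could divide its reads, rose by 5.66 (SE 0.41) to 7.92 ± 2.86 CPM. With an untreated mean of 0.0693 CPM it could not have been listed through untreated libraries alone. The rise of genes this low when untreated is thus partly set by the filter of 0.5 CPM. SERINC5 fell by 0.70 (SE 0.15).

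Of 16 listed genes of the ETS family, to which ETV7 belongs, 7 rose and 1 fell, with a median of 0.36. The shares over all genes were 9.52% higher and 17.5% lower. ETV6, the closest relative of ETV7, rose from 14.3 ± 1.75 to 46.2 ± 5.79 CPM (log2 change 1.68, SE 0.14) and ELF3, an epithelial member, by 1.34 (SE 0.13). ETV2 fell by 0.97 (SE 0.23). The largest of these changes, 1.68, compares with 7.37 for ETV7.

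Of 19 genes of CYLD's pathway, the linear ubiquitin and TNF receptor signalling proteins, 3 rose and none fell, with a median of 0.21. Beside 9.52% called higher and 17.5% lower over all genes, so small a count is not read as a result for the pathway. BIRC3, a ubiquitin ligase of the TNF receptor complex, rose by 2.82 (SE 0.28) from 0.764 ± 0.144 to 6.27 ± 2.60 CPM. RBCK1 (HOIL-1), a subunit of the linear ubiquitin ligase, rose by 0.99 (SE 0.22). TNFAIP3 (A20), another brake on NF-κB, was called with a mean change of 0.58 (SE 0.19). Its change was -0.017 and 0.163 in pairs A and B and 1.004 and 1.182 in C and D. The mean thus describes neither set of pairs, although TNFAIP3 was not among the 5 genes that passed for a difference between name endings. Of the 3 called genes, 2 had the same direction in all 4 pairs. The TNFAIP3 groups overlapped, and its call was lost without any of 5 libraries (untreated C or D, cytokine B, C or D; limma adjusted p 0.0539 to 0.108). With TMM scaling 6 of the 19 were called higher, beside 13.0% of all genes.

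Of 20 genes of mitochondrial ubiquitin handling and mitophagy, the pathway of USP30, 4 rose and none fell, and the median of -0.01 lay close to that of all genes. Beside 9.52% called higher and 17.5% lower over all genes, this count too is not read as a result for the pathway. OPTN and SQSTM1, receptors that bind ubiquitin on cargo for autophagy, rose by 1.57 (SE 0.23) and 1.40 (SE 0.23). USP15, a deubiquitinase, rose by 1.05 (SE 0.23). MARCHF5, a ubiquitin ligase of the outer membrane, rose by 0.58 (SE 0.19), with overlapping groups and a call lost without any of 5 libraries (untreated A or B, cytokine A, C or D; limma adjusted p 0.0558 to 0.107).

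**Figure D5:**
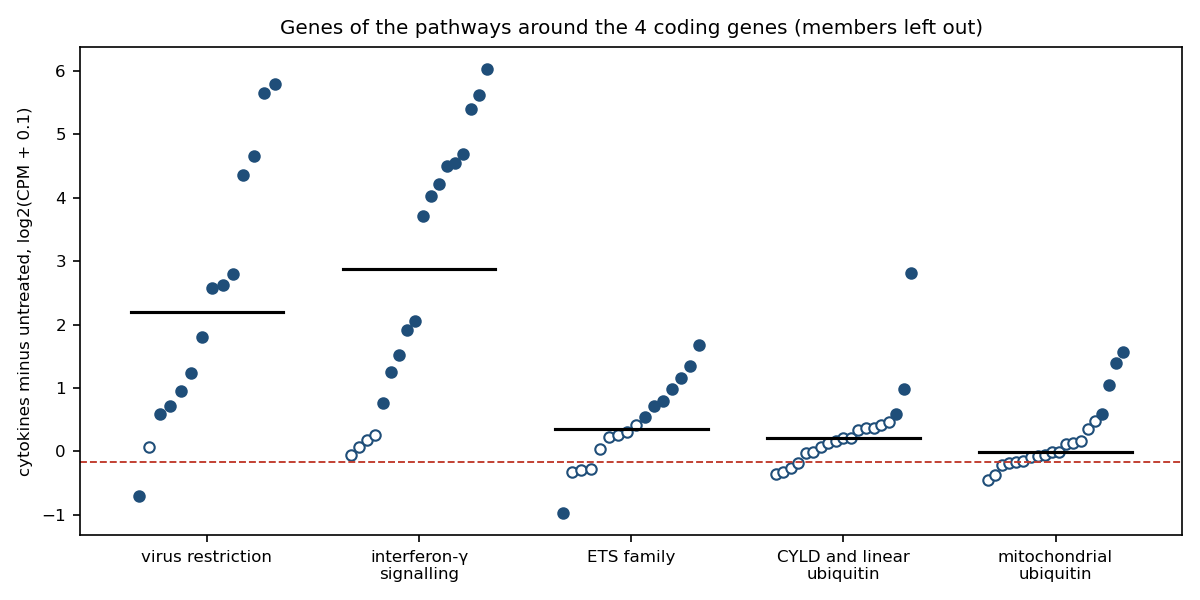
Change with cytokines (log2(CPM + 0.1), cytokine-exposed minus untreated, n = 4 per group) of each gene in 5 lists around the coding members, filled where called, with the list median as a black bar and the median of all 16525 genes (-0.17) as a dashed line. The interferon-γ signalling and virus restriction lists have medians of 2.88 and 2.19, and the mitochondrial list has a median of -0.01.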

How the data were processed

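RNA of 4 untreated and 4 cytokine-exposed EndoC-βH5 cultures was sequenced by the authors as 100-base paired reads, aligned to GRCh38 with TopHat2 2.1.1, counted on genes of Ensembl release 107 with HTSeq 0.9.1, filtered at 0.5 CPM in at least 4 samples and deposited as CPM values. Another 4 columns of sample values were not used here. CPM values were whole multiples of 1 read (tolerance 0.01), which gave the reads behind them. Differential expression was tested with limma 3.58.1 in R 4.3.3, fitted to log2(CPM + 0.1) without a block, with the prior variance following intensity and Benjamini-Hochberg adjustment over 16525 genes, at the study's thresholds (absolute log2 change above 0.5, FDR below 0.05). The difference between column-name endings came from a limma fit of treatment by ending (FDR below 0.05). Alternatives were TMM scaling, pseudocounts of 0.5 and 1, a mean of at least 1 CPM, no trend, the name prefix as a block, edgeR 4.0.16 and DESeq2 1.42.0 on recovered reads, and leaving out each library. edgeR with the block and 5 neighbours a side were added after seeing the data.

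The columns carry no replicate number, so the prefix served as the pairing. Within a prefix, departures from the group means correlated across genes by 0.46, 0.50, 0.75 and 0.68 for A to D, although A and B could not be told apart (0.45 and 0.49 when crossed). The members and gene lists were chosen with earlier results of these data known. Named genes were the members, the 3 listed neighbours on each side, the 2 nearest profiles, and per list the 2 largest rises and falls with separate groups, plus those behind a count of 5 or fewer. Lists carry no set test. For 1 gene of these lists no result of its own is reported here. Reads per exon base used GENCODE 29 (16167 genes, 97.8%, matched). No library was a copy of another (chi-square of at least 5.90 per gene within groups). A and B were the closest, at 13.3 untreated and 5.90 after cytokines, against 66.9 to 296 for all other comparisons within a group. The SE and p-values here may therefore overstate the independence of the 4 libraries per group. The fits of CYT against CTRL (limma, edgeR and DESeq2) and the limma difference in change between endings were checked on simulated data, and the other contrasts were not. Tables and figures used Python 3.11.15, pandas 2.3.3, numpy 2.4.6, scipy 1.17.1 and matplotlib 3.10.9.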

Additional observations from a re-analysis of the deposited data

Results flagged for a closer look

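The change of BST2 with cytokines differed between libraries grouped by column-name ending, by 4.17 log2 units (SE 0.28), as tested by an interaction term in limma (adjusted p = 8.77e-05). It was 7.49 in pairs A and B and 11.66 in pairs C and D, with BST2 at 0.0398 and 0.0587 CPM in untreated libraries C and D against 1.05 and 1.48 CPM in A and B. The levels after cytokines were 243 and 241 CPM in A and B and 560 and 415 CPM in C and D. The name endings are those of the columns, and what they stand for is not given in the sources used here. Each ending holds 2 libraries per group, and A and B were far closer to each other than the rest, so this p may not measure independent replication.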

How the results depend on the processing

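The direction of all 8 member changes was the same under every alternative run, but the sizes of the lncRNA changes depended on the pseudocount and the test. With all 8 libraries they ranged from 4.38 to 9.82 for BISPR, 1.51 to 9.58 for ETV7-AS1, 2.64 to 6.30 for CYLD-AS1 and 3.48 to 7.76 for USP30-AS1, lowest with a pseudocount of 1 and highest in DESeq2 or, for ETV7-AS1, edgeR with the block. The coding genes ranged from 7.80 to 9.67 for BST2, 6.26 to 7.72 for ETV7, 0.90 to 1.08 for CYLD and -0.38 to -0.22 for USP30. Leaving out single libraries gave 9.02 to 10.18 for BST2, 7.26 to 7.50 for BISPR, 7.27 to 7.49 for ETV7, 4.17 to 4.34 for ETV7-AS1, 0.84 to 0.99 for CYLD, 4.85 to 5.34 for CYLD-AS1, -0.44 to -0.32 for USP30 and 5.97 to 6.31 for USP30-AS1. The lncRNA minus partner changes moved with the treatment of low reads. BISPR minus BST2 reversed to 0.44 in edgeR, 0.63 in DESeq2 and 0.41 in edgeR with the replicate block, and ETV7-AS1 minus ETV7 reversed to 1.87, 1.38 and 1.87 and was -4.54 and -4.75 with pseudocounts of 0.5 and 1. CYLD-AS1 minus CYLD was 2.51 and 1.74 with those pseudocounts and 5.17, 5.21 and 5.12 in the 3 tests on reads, and USP30-AS1 minus USP30 was 4.72 and 3.85, and 7.91, 7.97 and 7.91. A mean of at least 1 CPM would leave out ETV7-AS1 and was not run for members. With the replicate block limma called 1071 lncRNA genes in place of 681, and it changed no call of a named gene but that of HNRNPA1L3, whose adjusted p became 0.0068. The block left the change of each member as it was. The list around CYLD had 6 calls with TMM, edgeR and DESeq2 and 7 in edgeR with the block, in place of 3. KCTD20 reversed to 0.036 with TMM, 0.043 in edgeR, 0.055 in DESeq2 and 0.037 in edgeR with the block, and SRSF3 to 0.15, 0.15, 0.16 and 0.15. Leaving out single libraries KCTD20 ranged from -0.24 to 0.020, SRSF3 from -0.037 to 0.062 and SALL1 from -0.18 to 0.50. The number of genes whose change differed between name endings ranged from 3 to 11 (3 without untreated B, cytokine A or cytokine B, 11 without cytokine D), and that of genes whose untreated level differed from 68 (without untreated A) to 4813, with a lone library assumed to vary like the others. The cause of these changes was not tested.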
